A study of Mus musculus with 32 samples.

Results

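The genes of glycolysis and of the cellular response to low oxygen were followed through RNA sequencing of primary mouse astrocytes. The set was a list of 34 gene symbols, covering the glycolytic enzymes, their regulators, the carriers of glucose and lactate, the oxygen-sensing machinery and well-known targets of the hypoxia-inducible factors. These symbols stood for 35 of the 21899 gene rows, since Aldoa had a pair of gene IDs that were kept apart. Astrocytes, the glial cells that supply neurons with metabolites, were left untreated (Control), exposed to light, which the labels call PBM for photobiomodulation, treated with the endotoxin lipopolysaccharide (LPS), which activates Toll-like receptor signalling, or given LPS as well as PBM (LPS+PBM). All 4 treatments had 4 libraries at 4 h and another 4 at 24 h, which makes 8 groups. The sources used here do not state the mouse strain, the age of the animals, the light dose or the dose of LPS, nor whether the replicates of a group were separate cultures. The p-values therefore measure the spread between these libraries, which may be technical. The study's title concerns the effect of light on the inflammatory response of astrocytes, so the comparisons below give the effect of LPS, the effect of light without and with LPS, and the difference between the times.

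Glycolysis splits glucose into pyruvate. Glucose enters through membrane carriers, is trapped by hexokinase, committed to breakdown by phosphofructokinase, and reaches pyruvate through a chain of abundant enzymes. Lactate dehydrogenase converts pyruvate to lactate, which monocarboxylate carriers export, and astrocytes are known for releasing lactate that neurons can use. The alpha subunits of the hypoxia-inducible factors are hydroxylated by prolyl hydroxylases and degraded when oxygen is present. When stabilised, they bind the hypoxia response element and raise many glycolytic genes, angiogenic factors and their own inhibitors. In macrophages, LPS is known to raise the Hif1a transcript through NF-kappaB.

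Values are FPKM, fragments scaled to transcript length and library size, as deposited. The steps between low FPKM values put the depth at 130750 to 143820 fragments per library (median 137230), so a single fragment on 1 kb of transcript equalled 6.95 to 7.65 FPKM. Of the 35 rows, 25 were above 0 in all 32 libraries, 9 in some and 1, the second Aldoa ID (ENSMUSG00000114515), in none. A total of 20 rows had about 10 or more fragments per library and 6 had under 3, and a value of 0 is therefore given as listed at 0, not as absence. The astrocyte markers Gfap, Aqp4, Slc1a3 and Aldh1l1 were above 0 in every library, at 39.5, 26.7, 16.7 and 11.0 FPKM on average. Collagen Col1a1 (515 FPKM), Dcn (186 FPKM), Pdgfrb (52.4 FPKM) and the microglial receptor Csf1r (46.2 FPKM) were also above 0 in all 32. The cultures thus held RNA of genes used as markers of other cell types. Other markers of those types were lower. Of the microglial ones, Cx3cr1 averaged 3.95 FPKM (at 0 in 8 libraries), and Aif1 was at 0 in 24 and P2ry12 in 28. Endothelial Pecam1 was at 0 in 29 and fibroblast Lum in 7. Mog, Rbfox3, Snap25 and Cldn5, which mark oligodendrocytes, neurons and endothelium, were listed at 0 in all 32, but Tubb3, a neuronal tubulin, averaged 14.7 FPKM (at 0 in 2 libraries) and Pdgfra, of oligodendrocyte precursors and fibroblasts, 3.18 FPKM (at 0 in 10). In bulk RNA, fewer cells of a type and less RNA per cell cannot be told apart. The 8 LPS-induced genes used to check the labels were higher in each of the 4 comparisons of LPS with no LPS.

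The sequences just upstream of the genes whose results are described most fully are shown here because the hypoxia-inducible factors act through a short core. RefSeq windows (GRCm38.p6) of 250 bases, each ending at the base before an annotated transcript start and read 5′ to 3′ on the gene's strand, were found for 32 of the 34 symbols, 45 windows in all. Capitals mark the core in the forms ACGTG and GCGTG on either strand, so that CACGT and CACGC are the same cores read on the other strand and CACGTG holds one on each.
Hif1a, chr12:73907617-73907866, plus strand: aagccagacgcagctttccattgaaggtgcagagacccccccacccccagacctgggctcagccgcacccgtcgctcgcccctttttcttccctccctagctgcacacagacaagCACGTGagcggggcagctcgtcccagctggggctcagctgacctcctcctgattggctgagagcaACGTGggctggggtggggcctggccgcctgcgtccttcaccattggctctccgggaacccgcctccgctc
Vegfa, chr17:46032378-46032627, minus strand: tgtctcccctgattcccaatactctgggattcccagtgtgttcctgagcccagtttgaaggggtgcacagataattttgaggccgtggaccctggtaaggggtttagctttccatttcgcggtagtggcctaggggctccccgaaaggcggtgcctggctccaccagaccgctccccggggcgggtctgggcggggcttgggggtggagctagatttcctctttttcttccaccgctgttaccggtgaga
Hk2, chr6:82774455-82774704, minus strand: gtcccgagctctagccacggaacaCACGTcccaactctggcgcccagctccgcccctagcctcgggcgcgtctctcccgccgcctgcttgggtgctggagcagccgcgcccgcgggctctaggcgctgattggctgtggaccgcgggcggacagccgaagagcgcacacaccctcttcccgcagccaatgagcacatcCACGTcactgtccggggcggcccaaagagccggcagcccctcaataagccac
Pfkp, chr13:6648772-6649021, minus strand: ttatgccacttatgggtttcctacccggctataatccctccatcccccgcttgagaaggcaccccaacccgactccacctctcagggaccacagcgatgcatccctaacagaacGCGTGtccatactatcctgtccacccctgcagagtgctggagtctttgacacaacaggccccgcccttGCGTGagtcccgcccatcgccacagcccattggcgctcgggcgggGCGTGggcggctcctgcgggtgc
Ldha, chr7:46845554-46845803, plus strand: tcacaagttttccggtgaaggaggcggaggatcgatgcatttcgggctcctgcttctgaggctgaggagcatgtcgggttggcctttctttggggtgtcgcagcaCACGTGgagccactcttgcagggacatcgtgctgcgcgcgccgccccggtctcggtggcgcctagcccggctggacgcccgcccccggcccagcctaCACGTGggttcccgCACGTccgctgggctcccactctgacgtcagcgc
Ldhb, chr6:142507958-142508207, minus strand: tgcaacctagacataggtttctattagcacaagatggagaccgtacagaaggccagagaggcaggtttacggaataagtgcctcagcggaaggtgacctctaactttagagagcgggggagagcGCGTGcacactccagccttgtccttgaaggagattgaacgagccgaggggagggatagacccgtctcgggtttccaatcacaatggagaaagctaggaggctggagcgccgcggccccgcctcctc

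The Ldha window shown held 5 cores and a window at a downstream Ldha start (chr7:46846832-46847081) held 1. Hif1a and Pfkp held 3 each, Hk2 2 and Ldhb 1. The Vegfa window shown held none, and a window at a downstream Vegfa start (chr17:46025164-46025413) held 2. At least 1 core stood in 36 of the 45 windows (80.0%) and in 12679 of all 32851 RefSeq windows (38.6%). ACGTG alone stood in 51.1% against 16.6%, and GCGTG in 55.6% against 28.2%. Both forms hold a CG, and the median window of the set had 14 CG dinucleotides where the median of all windows had 6. These are matches of letters, not binding sites.

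Across the set, few rows passed the test for an effect of LPS. Differences were tested with limma on log2(FPKM + 1) across all genes, and a gene was called where its Benjamini-Hochberg adjusted p was under 0.05. Of 34 rows tested at 4 h, 1 (2.94%) was called in LPS against Control, where 2.23% of all genes were called. In LPS+PBM against PBM at 4 h 3 were called (8.82%, against 2.63% of all genes). At 24 h, 33 rows were tested. LPS against Control called 2 of them (6.06%, against 2.56% of all genes), and LPS+PBM against PBM called 4 (12.1%, against 2.7% of all genes). The calls were Vegfa at 4 h in both comparisons, Hk2 and Adm at 4 h in LPS+PBM against PBM, Hif1a and Ldhb at 24 h in both, and Ldha and Pfkp at 24 h in LPS+PBM against PBM. The comparisons of LPS with Control and of LPS+PBM with PBM share no libraries. Within a time, however, both come from the same fit and share its estimate of each gene's spread, so their p-values are not independent. No row was called for PBM against Control, for LPS+PBM against LPS, or for the interaction at either time. Since 15 of the 35 rows had under 10 fragments per library, a row not called is not shown to be unchanged.

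The median log2 fold change of the tested rows lay near that of all genes. It was -0.03 for LPS against Control at 4 h (all genes, -0.07) and -0.21 for LPS+PBM against PBM at 4 h (all genes, -0.16). At 24 h it was 0.04 for LPS against Control (all genes, -0.05) and 0.12 for LPS+PBM against PBM (all genes, -0.08). The shift of -0.16 at 4 h is a shift of all genes, and changes in that comparison should be read against it.

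**Figure D1:**
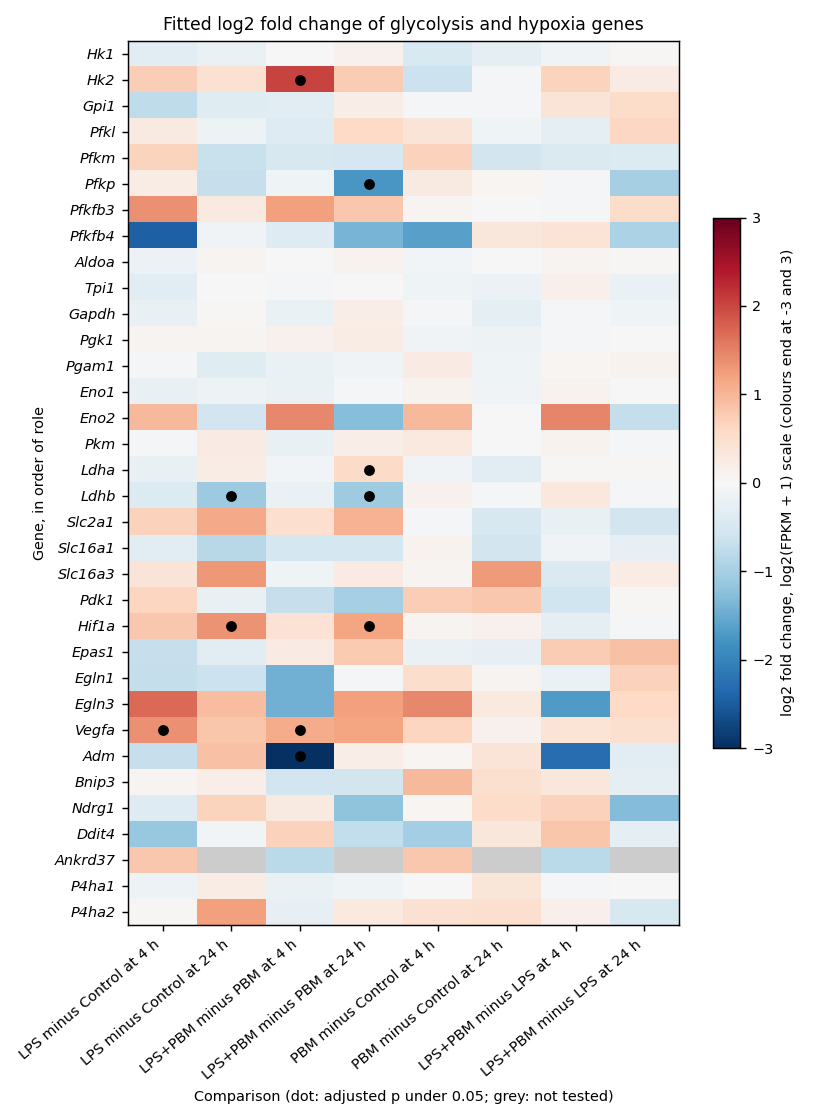
Fitted log2 fold changes, on the log2(FPKM + 1) scale, of the genes in order of their role (rows) in the 4 comparisons of LPS and the 4 of PBM (columns), with a dot where the adjusted p was under 0.05 and grey where a gene was not tested. Dots stand in the LPS columns for Vegfa, Hk2, Adm, Hif1a, Ldha, Ldhb and Pfkp, and no dot stands in the PBM columns.

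Hif1a, the oxygen-regulated subunit of hypoxia-inducible factor, was higher with LPS at 24 h. The gene (ENSMUSG00000021109) lies on chromosome 12, 73901375 to 73947530, plus strand of GRCm38. Its exons overlap Gm49321 on the same strand and Gm15283 on the opposite strand, neither of which is among the deposited genes. At 24 h the Control libraries stood at 25.7, 34.2, 43.0 and 51.3 FPKM, and the PBM libraries at 29.6, 46.8, 40.2 and 49.6 FPKM. The LPS libraries stood at 102, 113, 93.0 and 79.9 FPKM, and the LPS+PBM libraries at 104, 76.6, 93.9 and 108 FPKM. Every library with LPS was above every library without it. The mean was 97.1 ± 14.1 FPKM with LPS against 38.5 ± 11.0 in Control (SD, n = 4), a log2 fold change of 1.34 ± 0.24 (SE; limma adjusted p = 0.00286). In LPS+PBM the mean was 95.4 ± 13.8 FPKM against 41.6 ± 8.89 with PBM, which differed by 1.19 ± 0.24 on the log2 scale (limma adjusted p = 0.00723). The values rested on about 98 to 255 fragments per group of 4 libraries. Both calls held when any 1 of the 8 libraries compared was left out. Both were lost without the 6 libraries whose columns stand last in the table, out of the order of their groups. The fold changes were then 1.36 (limma adjusted p = 0.0619) and 1.22 (limma adjusted p = 0.0735). These 6 hold no Control library, and at 24 h they are PBM replicate 2, LPS replicates 2 and 4 and LPS+PBM replicate 1. That fit thus has fewer libraries in the treated groups than in Control.

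Marker levels of several cell types also differed at 24 h. The 12 astrocyte markers summed to 340 to 486 FPKM in Control and 229 to 339 with PBM, against 167 to 227 with LPS and 135 to 194 with LPS+PBM, with 12, 12, 11 and 12 of the 12 above 0 and none of the 4 defining ones at 0. The 11 endothelial and mural markers summed to 1632 to 1723 FPKM in Control and 1420 to 1835 with PBM. With LPS the sums were 1073 to 1111 FPKM, and with LPS+PBM 934 to 1264. Acta2 and Tagln made up most of them, at 957 and 622 FPKM in Control and 611 and 422 with LPS. Of the 8 tested, none was fitted above 0 in LPS against Control and 1 in LPS+PBM against PBM. Cldn5 was at 0 throughout and Pecam1 in 29 of the 32 libraries. The 16 microglial markers summed to 815 to 854 FPKM in Control and 625 to 864 with PBM, against 597 to 717 with LPS and 463 to 789 with LPS+PBM. Here P2ry12 was at 0 in 28 libraries and Aif1 in 24. Fcer1g was called higher in both comparisons, at 118 FPKM with LPS against 49.5 in Control and 124 with LPS+PBM against 29.1 with PBM. In the same comparisons 3 and 4 microglial markers were called lower. The fibroblast markers summed to 2081 to 2368 FPKM in Control and 2024 to 2295 with LPS. They summed to 2217 to 2633 FPKM with PBM and 1793 to 2087 with LPS+PBM, the latter pair without overlap. Within these sums Dcn was higher with LPS, at 422 against 145 FPKM in Control and at 342 in LPS+PBM against 120 with PBM. In LPS+PBM against PBM, Col1a1 (496 against 709 FPKM) and Col1a2 (713 against 976 FPKM) were lower. The neuronal and the oligodendrocyte markers, at 56.7 to 129 and 27.9 to 72.3 FPKM over the 4 groups, overlapped in both comparisons. The part of these differences in the results at 24 h was not tested.

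At 4 h the difference in Hif1a did not pass. The Control libraries held 31.6, 39.9, 33.3 and 25.1 FPKM, and the LPS libraries 66.8, 48.6, 58.5 and 54.2 FPKM, with no overlap. The log2 fold change was 0.80 ± 0.23 (limma adjusted p = 0.0826). In the PBM libraries Hif1a was at 32.9, 30.7, 30.5 and 42.8 FPKM and in the LPS+PBM libraries at 45.1, 48.7, 48.8 and 41.6 FPKM, which overlapped in 1 library (log2 fold change 0.43 ± 0.23, limma adjusted p = 0.415). The effect of LPS at 24 h minus that at 4 h was 0.54 ± 0.31 (limma adjusted p = 0.686), so the larger value at 24 h was not shown to differ from that at 4 h.

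The other genes of oxygen sensing did not pass in any comparison. Epas1, which encodes the related alpha subunit, had group means of 4.51 to 10.4 FPKM. Egln1, the main prolyl hydroxylase, lay at 8.14 to 21.5 FPKM on average. In the comparison of LPS+PBM with PBM at 4 h its groups did not overlap, at 8.14 ± 4.45 against 21.5 ± 7.33 FPKM. Egln3, a prolyl hydroxylase that hypoxia is known to raise, was listed at 0 in 13 libraries, with group means of 0.70 to 6.05 FPKM, and rested on about 1 to 9 fragments per group.

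**Figure D2:**
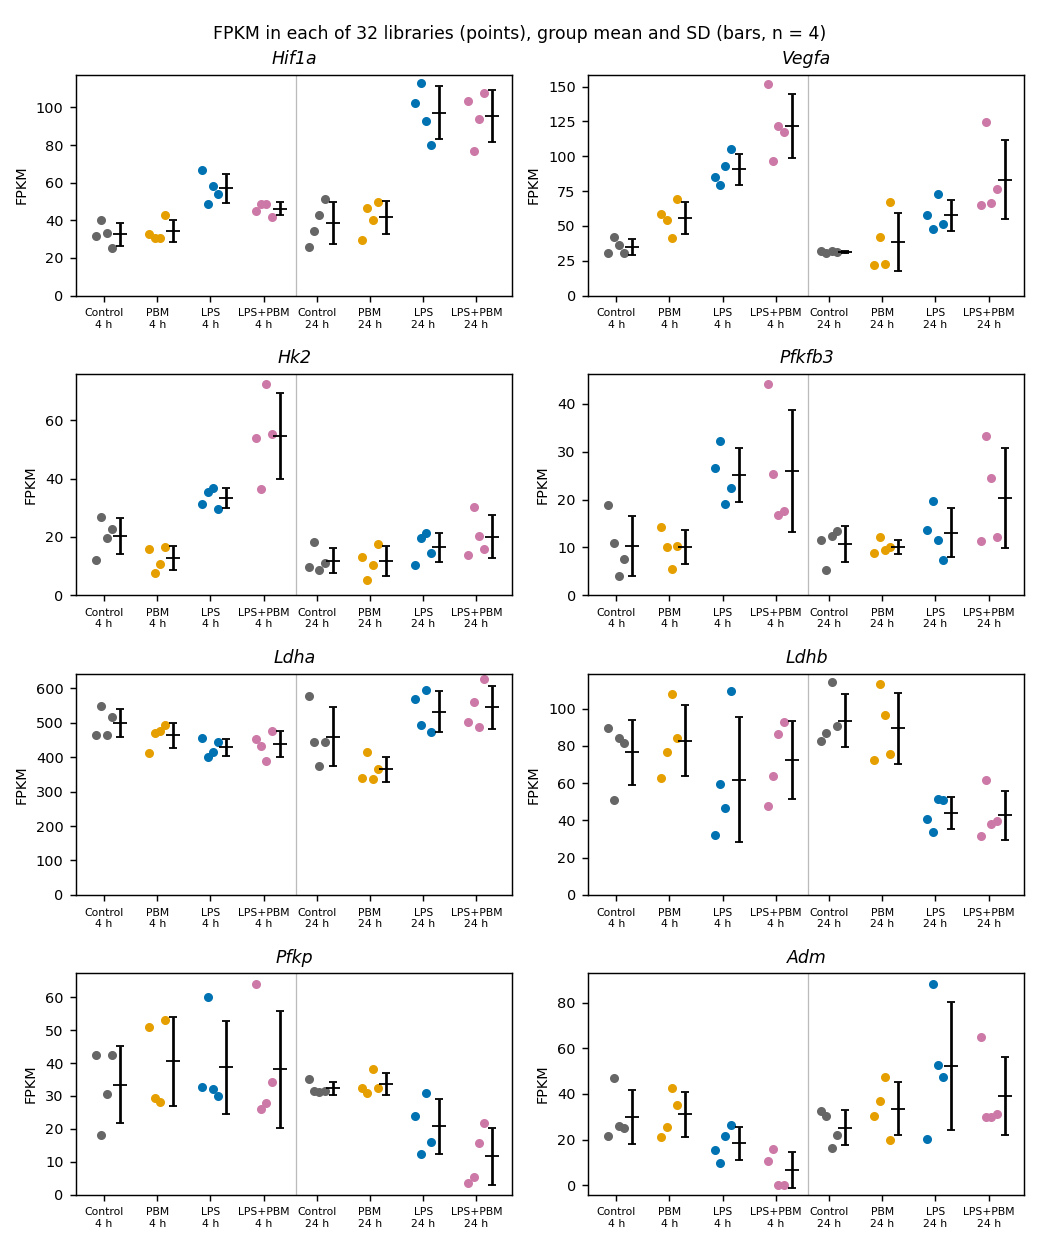
FPKM of Hif1a, Vegfa, Hk2, Pfkfb3, Ldha, Ldhb, Pfkp and Adm in each of the 32 libraries (points, in 8 groups) with the group mean and SD (bars, n = 4). The LPS and LPS+PBM points lie above all others for Hif1a at 24 h and below all others for Ldhb at 24 h, and the group means of Vegfa and Hk2 are highest in LPS and LPS+PBM at 4 h.

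Vegfa, the vascular endothelial growth factor and a standard target of hypoxia-inducible factors, was higher with LPS at 4 h. The gene (ENSMUSG00000023951) lies on chromosome 17, 46016993 to 46032369, minus strand of GRCm38. The Control libraries stood at 30.8, 42.2, 36.1 and 30.4 FPKM, and the LPS libraries at 85.1, 79.2, 93.4 and 105 FPKM. With PBM the values were 58.3, 53.9, 41.0 and 69.2 FPKM, and with LPS+PBM 152, 96.9, 121 and 117 FPKM. No library with LPS overlapped those without it. The log2 fold change was 1.36 ± 0.21 for LPS against Control (limma adjusted p = 0.000631) and 1.12 ± 0.21 for LPS+PBM against PBM (limma adjusted p = 0.00449), and both held in each of the 16 alternatives run. Expressed as means, 34.9 ± 5.52 FPKM rose to 90.7 ± 11.3, and 55.6 ± 11.6 to 122 ± 22.7 (SD, n = 4).

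Vegfa at 24 h was at 31.9, 30.5, 32.2 and 31.1 FPKM in Control, and the LPS libraries held 57.5, 48.1, 72.7 and 51.7 FPKM. The groups did not overlap, and the log2 fold change of 0.83 ± 0.32 did not pass (limma adjusted p = 0.227). PBM libraries held 22.3, 42.3, 23.0 and 66.9 FPKM and LPS+PBM libraries 64.9, 125, 66.6 and 76.4 FPKM, which differed by 1.18 ± 0.32 on the log2 scale (limma adjusted p = 0.0524). The highest PBM library stood above 2 of the LPS+PBM libraries. The effect of LPS on Vegfa was not shown to differ between the times (-0.52 ± 0.37, limma adjusted p = 0.78).

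Marker sums at 4 h differed with LPS as well. The 9 fibroblast markers summed to 1671 to 2030 FPKM in Control and 1303 to 1653 with LPS, and to 1657 to 1814 with PBM and 1239 to 1410 with LPS+PBM. Neither defining Col1a1 nor Dcn was at 0, and Lum was at 0 in 7 of the 32 libraries. The astrocyte markers summed to 247 to 389 FPKM in Control against 173 to 251 with LPS, lower on average but with overlap. They summed to 187 to 291 FPKM with PBM against 300 to 357 with LPS+PBM, higher without overlap. The microglial markers summed to 683 to 798 FPKM in Control against 450 to 649 with LPS, without overlap, and to 508 to 768 with PBM against 534 to 733 with LPS+PBM. The 12 neuronal markers summed to 65.1 to 80.5 FPKM in Control against 40.3 to 58.0 with LPS, also without overlap, and to 39.2 to 76.8 with PBM against 22.2 to 71.8 with LPS+PBM. The 12 oligodendrocyte markers lay between 34.5 and 76.3 FPKM and the endothelial and mural ones between 1446 and 2118 FPKM in the 4 groups, with overlap in both comparisons. The part of these markers in the results at 4 h was not tested.

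Adm, which encodes the vasodilator peptide adrenomedullin, was lower in LPS+PBM at 4 h. The gene (ENSMUSG00000030790) lies on chromosome 7, 110627661 to 110629820, plus strand. The LPS+PBM libraries held 10.7, 16.1, 0 and 0 FPKM against 21.2, 25.4, 42.8 and 35.0 FPKM with PBM. The log2 fold change of -3.04 ± 0.74 passed (limma adjusted p = 0.0298), on about 5 fragments against 24. Since 2 LPS+PBM libraries were listed at 0, this fold change depends on the added 1 and is no bound. With a pseudocount of 0.1 it was -4.71 and did not pass (limma adjusted p = 0.0619). The call was also lost without any 1 of the 4 PBM libraries (limma adjusted p = 0.0505, 0.0614, 0.0932 and 0.0761 without replicates 1 to 4) and without LPS+PBM replicate 3 (0.093) or 4 (0.0971), the pair listed at 0, with only the compared groups (0.124) and with a block for the replicate number (0.0514). Adm was at 21.5, 47.1, 26.0 and 25.1 FPKM in Control and 15.5, 10.0, 21.6 and 26.6 FPKM with LPS at 4 h (log2 fold change -0.69 ± 0.74, limma adjusted p = 0.777).

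The remaining hypoxia targets did not pass in any comparison. P4ha1, a subunit of the collagen prolyl hydroxylase, was the most steadily measured, with group means between 90.8 ± 18.0 and 123 ± 12.8 FPKM. P4ha2, its paralogue, had group means of 25.4 to 61.0 FPKM. Bnip3, a mitophagy receptor, was at 20.8 ± 12.0, 34.6 ± 6.76, 19.3 ± 7.95 and 24.5 ± 10.9 FPKM in Control, PBM, LPS and LPS+PBM at 4 h and at 13.3 to 17.3 FPKM on average at 24 h. Ddit4, an inhibitor of mTOR signalling, had group means of 8.34 to 32.6 FPKM, the lowest with LPS at 4 h. Ndrg1, a stress-responsive gene, ranged from 7.54 to 183 FPKM over libraries, with group means of 25.0 to 66.3. Ankrd37 was listed at 0 in 30 of the 32 libraries and was not tested at 24 h.

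Glucose entry and its first step showed a change in Hk2. This gene (ENSMUSG00000000628, chromosome 6, 82725025 to 82774454, minus strand) encodes the inducible hexokinase, and Hk1 the constitutive one. At 4 h the PBM libraries held 16.0, 7.68, 10.8 and 16.4 FPKM of Hk2, and the LPS+PBM libraries 54.0, 36.5, 72.5 and 55.4 FPKM. The groups did not overlap, and the log2 fold change was 2.03 ± 0.33 (limma adjusted p = 0.000854), which held in all 16 alternatives run. The Control libraries held 12.2, 26.7, 19.7 and 22.8 FPKM and the LPS libraries 31.2, 35.3, 36.8 and 29.5 FPKM. These did not overlap either, but the smaller log2 fold change of 0.73 ± 0.33 did not pass (limma adjusted p = 0.371). The interaction, the difference between both effects of LPS, was 1.31 ± 0.46 and did not pass (limma adjusted p = 0.595), so the effect was not shown to be larger with light.

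Hk2 at 24 h had means of 11.9 ± 4.33 FPKM in Control, 11.7 ± 5.19 with PBM, 16.5 ± 4.93 with LPS and 20.0 ± 7.40 with LPS+PBM, and no comparison at that time passed. Hk1 stayed between 30.9 and 46.7 FPKM in group mean and was not called in any comparison. As a share of the summed FPKM of both hexokinases, Hk2 took 30.2% ± 7.23 in Control and 27.7% ± 10.9 with PBM at 4 h, against 48.2% ± 9.29 with LPS and 61.1% ± 10.1 with LPS+PBM (SD, n = 4). At 24 h the shares were 23.7% ± 6.52, 27.1% ± 11.6, 33.1% ± 4.41 and 37.0% ± 11.4 in the same order. The shares were computed after the levels were seen and are given without a test.

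Slc2a1, the carrier of glucose into astrocytes, had means of 17.0 ± 9.40, 18.3 ± 13.0, 26.0 ± 8.44 and 21.6 ± 6.30 FPKM in Control, PBM, LPS and LPS+PBM at 4 h. At 24 h they were 16.4 ± 16.5, 8.56 ± 2.21, 27.8 ± 4.89 and 19.0 ± 6.54 FPKM. The PBM and LPS+PBM libraries at 24 h did not overlap, with 10.7, 10.2, 6.74 and 6.57 FPKM against 28.3, 12.9, 17.1 and 17.8 FPKM, but the log2 fold change of 1.04 ± 0.49 did not pass (limma adjusted p = 0.373). Gpi1, the isomerase after hexokinase, was at 142 ± 22.1 FPKM in Control and 83.8 ± 14.9 with LPS at 4 h, without overlap (log2 fold change -0.76 ± 0.28, limma adjusted p = 0.23).

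Among the phosphofructokinases, Pfkp was lower in LPS+PBM at 24 h. Pfkp (ENSMUSG00000021196, chromosome 13, 6579768 to 6648777, minus strand) encodes the platelet-type enzyme, Pfkl the liver type and Pfkm the muscle type. Its LPS+PBM libraries held 3.63, 5.38, 15.6 and 21.8 FPKM at 24 h, against 32.5, 30.9, 38.3 and 32.5 FPKM with PBM. The log2 fold change was -1.74 ± 0.44 (limma adjusted p = 0.0338). Without the PBM libraries 1 to 4 in turn the adjusted p was 0.0761, 0.0691, 0.0921 and 0.0745, and without LPS+PBM replicate 1 or 2 it was 0.111 each, so the call did not hold in those fits, nor with only the compared groups (0.112) or without the 6 libraries listed last (0.164). The Control libraries held 35.1, 31.6, 31.1 and 31.4 FPKM of Pfkp, and the LPS libraries 23.9, 12.2, 30.8 and 16.1 FPKM, all lower than Control, with a log2 fold change of -0.70 ± 0.44 that did not pass (limma adjusted p = 0.554).

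At 4 h Pfkp had group means of 33.5 to 40.5 FPKM and overlapped between all groups. As a share of the summed FPKM of the 3 types, Pfkp was 34.2% ± 7.25 in Control, 39.9% ± 6.84 with PBM, 31.8% ± 16.8 with LPS and 15.7% ± 8.70 with LPS+PBM at 24 h (SD, n = 4, no test). Pfkl took 56.5% ± 17.8 of the sum in LPS+PBM at 24 h, with a mean of 38.4 ± 21.7 FPKM and libraries that overlapped the other groups. Pfkm had group means of 15.3 to 35.2 FPKM. Exons of Pfkp and Pfkm overlap Pitrm1 and Senp1 on the opposite strand, and whether reads were assigned by strand is not given in the sources used here. Those of Pfkm also overlap Gm26513 on the same strand.

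Pfkfb3 makes the allosteric activator of phosphofructokinase, and LPS libraries at 4 h stood above Control without passing. The values were 18.8, 11.0, 3.93 and 7.53 FPKM in Control and 26.6, 32.3, 19.2 and 22.5 FPKM with LPS (log2 fold change 1.36 ± 0.45, limma adjusted p = 0.158). They were 14.3, 10.1, 5.59 and 10.2 FPKM with PBM and 44.2, 25.3, 16.7 and 17.7 FPKM with LPS+PBM (1.24 ± 0.45, limma adjusted p = 0.189). Neither pair overlapped. At 24 h the group means were 10.2 to 20.3 FPKM. Pfkfb4, a related enzyme, was at 7.29 ± 5.47 FPKM in Control and listed at 0 in 3 of the 4 LPS libraries at 4 h, on about 14 fragments against 1.

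At 4 h, 7 of the 34 tested rows had no overlap between libraries in LPS against Control (7.28% of all genes). In LPS+PBM against PBM at 4 h it was 5 of 34 (8.25%). At 24 h it was 5 of 33 in LPS against Control (7.94%) and 8 of 33 in LPS+PBM against PBM (8.01%). At 4 h the rows were Hk2, Pfkfb3, Hif1a and Vegfa higher and Gpi1, Pfkfb4 and Ldha lower in the first comparison, and Hk2, Pfkfb3 and Vegfa higher and Egln1 and Adm lower in the second. At 24 h they were Hif1a and Vegfa higher and Pfkp, Ldhb and Slc16a1 lower in the first, and Pkm, Ldha, Slc2a1, Hif1a and Epas1 higher and Pfkp, Ldhb and Pdk1 lower in the second. For PBM against Control none was without overlap at either time (2.54% and 2.95% of all genes), and for LPS+PBM against LPS none at 4 h (3.83%) and 1, Epas1, at 24 h (2.24%). In each comparison of LPS with no LPS the share of the set was above that of all genes. The set was not matched to all genes by level, and the difference in shares was not tested.

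The enzymes from aldolase to pyruvate kinase were abundant and changed little. None of the 9 tested rows, Aldoa, Tpi1, Gapdh, Pgk1, Pgam1, Eno1, Eno2, Pkm and, earlier in the pathway, Gpi1, was called in any of the 15 comparisons. Aldoa, the aldolase of most tissues, had group means of 320 to 365 FPKM. Pgk1, which makes the first ATP of the pathway, had group means of 214 to 255 FPKM. Gapdh, often used as a reference gene, had group means of 534 to 699 FPKM, with 312 to 862 FPKM over single libraries. Pkm, pyruvate kinase, was at 528 ± 56.7, 656 ± 112, 520 ± 79.9 and 558 ± 38.4 FPKM in Control, PBM, LPS and LPS+PBM at 4 h, and at 492 ± 57.3, 493 ± 29.6, 579 ± 24.0 and 567 ± 40.7 FPKM at 24 h.

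The Pkm libraries at 24 h stood at 458, 530.1, 494 and 488 FPKM with PBM and at 627, 552, 549 and 539 FPKM with LPS+PBM. The groups did not overlap, but the log2 fold change of 0.20 ± 0.10 did not pass (limma adjusted p = 0.393). Tpi1, Pgam1 and Eno1 had group means of 89.9 to 119, 196 to 281 and 336 to 421 FPKM. Eno2, the neuronal enolase, took at most 3.82% ± 4.57 of the summed enolase FPKM in any group. The 8 rows from Aldoa to Pkm above 0 summed to 2283 to 2618 FPKM in group mean, or 0.546% to 0.622% of the FPKM total. Processed copies of such genes are known in the mouse genome. Exons of Aldoa, Tpi1 and Gapdh overlap Fam57b, Spsb2 and Iffo1 on the opposite strand, and those of Pkm overlap Gm49759 on the same strand. The levels given here may include reads of such copies and overlapping genes or lose reads to them.

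**Figure D3:**
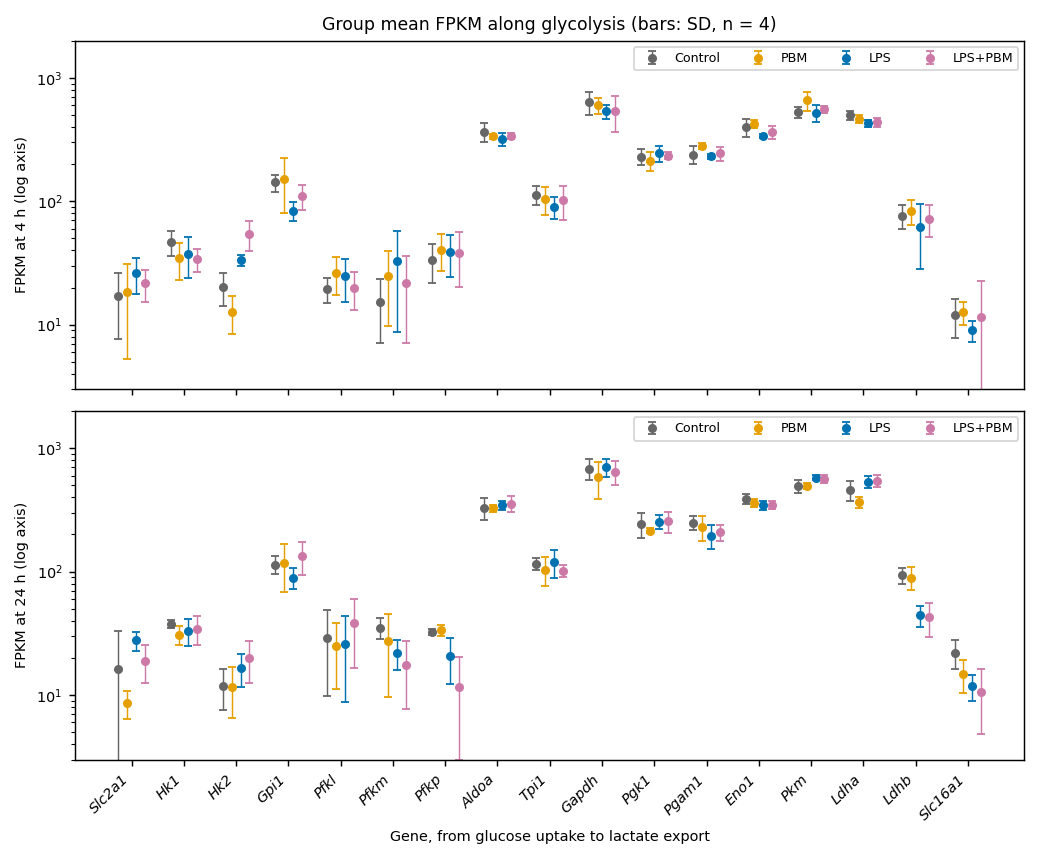
Group mean FPKM (points; log axis) with SD (bars, n = 4) of the genes from glucose uptake to lactate export at 4 h (upper panel) and 24 h (lower panel), by treatment. The plotted enzymes from Aldoa to Ldha (Eno2 is not drawn) have group means from 89.9 to 699 FPKM with overlapping SD bars for most, while the SD bars of PBM and LPS+PBM stand apart for Hk2 at 4 h and, among others, for Ldhb and Pfkp at 24 h.

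Of the lactate dehydrogenase subunits at 24 h, Ldhb was lower with LPS in both comparisons and Ldha higher in LPS+PBM against PBM. Ldhb (ENSMUSG00000030246, chromosome 6, 142490249 to 142507957, minus strand) encodes the heart-type subunit, linked to lactate use. At 24 h the Control libraries held 82.5, 86.9, 114 and 90.4 FPKM and the LPS libraries 40.7, 33.6, 51.3 and 51.0 FPKM. With PBM the values were 72.3, 113, 96.8 and 75.9 FPKM and with LPS+PBM 31.6, 61.8, 38.0 and 39.7 FPKM. Every library with LPS lay below every library without it. The means fell from 93.5 ± 14.3 to 44.2 ± 8.59 FPKM (log2 fold change -1.08 ± 0.24, limma adjusted p = 0.018) and from 89.5 ± 19.1 to 42.7 ± 13.1 FPKM (-1.07 ± 0.24, limma adjusted p = 0.0168).

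The Ldhb counts were small, about 66 and 65 fragments in Control and PBM against 32 and 31 with LPS and LPS+PBM. In LPS against Control the call was lost without Control replicate 3 (limma adjusted p = 0.0709) and without LPS replicate 1 (0.0532) or 2 (0.0658). In LPS+PBM against PBM it was lost without PBM replicate 2 (limma adjusted p = 0.0701) or 3 (0.053) and without LPS+PBM replicate 1 (0.0646). With limma-voom on approximate fragments the adjusted p was 0.0676 and 0.074, and without the 6 libraries listed last 0.126 and 0.191. With only the compared groups the second was 0.0595. At 4 h Ldhb was at 76.6 ± 17.5, 82.9 ± 18.8, 61.8 ± 33.6 and 72.5 ± 20.8 FPKM in Control, PBM, LPS and LPS+PBM, and the groups overlapped.

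Ldha (ENSMUSG00000063229, chromosome 7, 46841475 to 46855627, plus strand) encodes the muscle-type subunit, which favours lactate formation. The PBM libraries at 24 h held 341, 416, 335 and 365 FPKM, and the LPS+PBM libraries 502, 559, 488 and 627 FPKM. The groups did not overlap, and the mean rose from 364 ± 36.7 to 544 ± 63.1 FPKM (log2 fold change 0.58 ± 0.13, limma adjusted p = 0.018). In Control the values were 579, 445, 373 and 443 FPKM and with LPS 569.7, 492, 594 and 473 FPKM, which overlapped (0.22 ± 0.13, limma adjusted p = 0.516). The interaction of 0.35 ± 0.19 did not pass (limma adjusted p = 0.912), so the effects of LPS with and without light were not shown to differ. The call was lost without PBM replicate 1 (limma adjusted p = 0.0585) or 3 (0.0576) and without LPS+PBM replicate 2 (0.0531) or 4 (0.0704), and with quantile normalization (0.48, adjusted p = 0.0677).

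At 4 h Ldha was at 465, 548, 466 and 516 FPKM in Control and 455, 401, 414 and 444 FPKM with LPS, lower without overlap, and the log2 fold change of -0.22 ± 0.10 did not pass (limma adjusted p = 0.404). With PBM it was at 412, 471, 476 and 492 FPKM and with LPS+PBM at 453, 431, 388 and 477 FPKM. Ldha was 86.6% ± 3.45, 84.9% ± 2.33, 87.7% ± 5.58 and 85.8% ± 3.82 of the summed Ldha and Ldhb FPKM in Control, PBM, LPS and LPS+PBM at 4 h. At 24 h the share was 82.7% ± 4.56 in Control and 80.4% ± 2.65 with PBM, against 92.3% ± 1.52 with LPS and 92.7% ± 1.89 with LPS+PBM (SD, n = 4). The 8 libraries with LPS at 24 h lay between 90.1% and 94.1%, above the 76.5% to 87.5% of the 8 without. These shares were also chosen after the levels were seen and have no test.

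**Figure D4:**
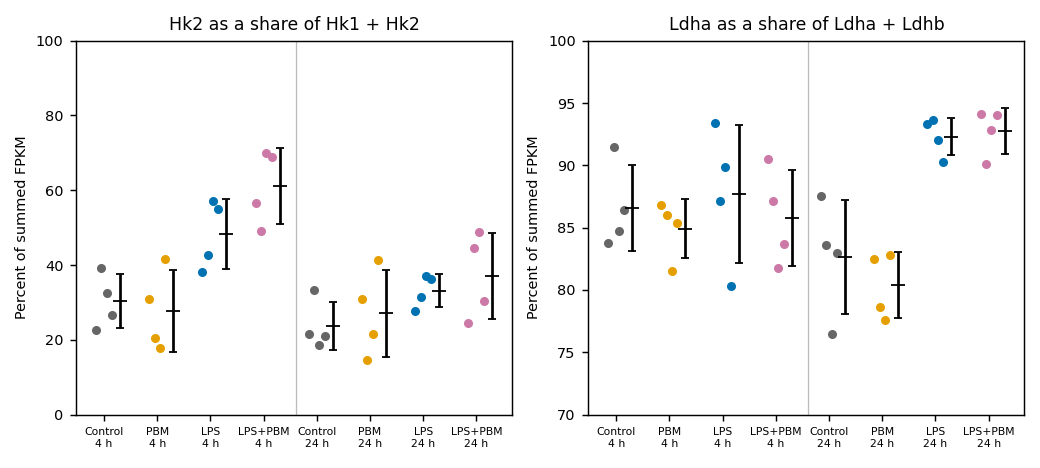
Hk2 as a percent of the summed Hk1 and Hk2 FPKM (left, axis from 0) and Ldha as a percent of the summed Ldha and Ldhb FPKM (right, axis from 70) in each library (points), with the group mean and SD (bars, n = 4). The mean Hk2 share is highest with LPS and LPS+PBM at 4 h, and the Ldha share is above 90% in all 8 libraries with LPS at 24 h.

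Of the lactate carriers, Slc16a1 had group means of 9.03 to 21.9 FPKM and was lower without overlap in LPS than in Control at 24 h, at 11.8 ± 2.77 against 21.9 ± 5.78 FPKM, without passing. Slc16a3, the exporter of strongly glycolytic cells, was listed at 0 in 10 of the 32 libraries, with group means of 0.835 to 7.85 FPKM. Pdk1, a kinase that inhibits pyruvate dehydrogenase, had group means of 1.75 to 6.51 FPKM. None of these passed in any comparison.

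Light without LPS moved no gene of the set past the threshold. At 4 h, where limma called 0.0453% of all genes, none of the 34 rows passed, 2 were under an unadjusted p of 0.05 (5.28% of all genes) and limma-voom called none. The smallest p-values belonged to Vegfa (0.65 ± 0.21, limma adjusted p = 0.76), Pkm (0.30 ± 0.13, limma adjusted p = 0.872) and Pfkfb4 (-1.64 ± 0.78, limma adjusted p = 0.939). At 24 h, where 0.113% of all genes were called, none of 33 passed, 1 was under an unadjusted p of 0.05 (5.95% of all genes) and limma-voom called none. Ldha (-0.32 ± 0.13, limma adjusted p = 0.747), P4ha1 (0.36 ± 0.19, limma adjusted p = 0.865) and Slc16a3 (1.27 ± 0.88, limma adjusted p = 0.888) had the smallest p there.

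With LPS present, light also moved none. LPS+PBM against LPS at 4 h gave no call among the 34 rows or among all genes (0%), with 1 row under an unadjusted p of 0.05 (7.53% of all genes), Adm (-2.29 ± 0.74, limma adjusted p = 0.453), and none with limma-voom. Hk2 was at 0.67 ± 0.33 (limma adjusted p = 0.668) and Vegfa at 0.41 ± 0.21 (limma adjusted p = 0.707). At 24 h, 0.00753% of all genes were called and none of the 33 rows, with 2 under an unadjusted p of 0.05 (5.14% of all genes) and none with limma-voom. Ndrg1 (-1.30 ± 0.50), Pfkp (-1.0 ± 0.44) and Gpi1 (0.54 ± 0.26) had the smallest p-values, each with a limma adjusted p of 0.964. The interaction called none of the rows at 4 h (0.0302% of all genes) or at 24 h (0.0527%), and limma-voom none. Under an unadjusted p of 0.05 it had 3 rows at 4 h (6.45% of all genes) and 1 at 24 h (5.29%). Its smallest p-values were those of Hk2, Egln3 (-3.14 ± 1.24, limma adjusted p = 0.664) and Adm (-2.35 ± 1.05, limma adjusted p = 0.741) at 4 h, and of Ndrg1 (-1.86 ± 0.70, limma adjusted p = 0.83), Ldha and Pfkp (-1.05 ± 0.62, limma adjusted p = 0.912) at 24 h.

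Between 4 h and 24 h, 4 of the 34 rows (11.8%) were called in LPS+PBM, where 3.01% of all genes were called. Hif1a was higher at 24 h by 1.03 ± 0.22 (limma adjusted p = 0.00422) and Adm by 3.33 ± 0.63 (limma adjusted p = 0.00122). Pfkp was lower (log2 difference -1.83 ± 0.40, limma adjusted p = 0.00645), as was Hk2 (-1.43 ± 0.36, limma adjusted p = 0.0194). The size of the Adm difference depends on the added 1, since 2 libraries at 4 h were listed at 0, and it lay between 2.70 and 4.06 when any 1 library was left out, with every library at 4 h below every library at 24 h. The Hk2 call was lost without LPS+PBM replicate 3 at 4 h (limma adjusted p = 0.0768) and without LPS+PBM replicate 1 (0.0802) or 4 (0.0647) at 24 h. Without the 6 libraries listed last the adjusted p was 0.0518 for Hif1a, 0.0539 for Pfkp and 0.0606 for Hk2, and with only the compared groups it was 0.0736 for Adm and 0.112 for Pfkp. Adm stood at 65.0, 30.1, 30.1 and 31.3 FPKM in LPS+PBM at 24 h.

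No row passed between the times in Control, with PBM or with LPS, where 1.11%, 1.05% and 1.33% of all genes were called by limma, and 2, 4 and 7 of the 34 rows were under an unadjusted p of 0.05 (9.66%, 9.44% and 11.6% of all genes). In Control the smallest p-values were those of Eno2 (2.12 ± 0.99, limma adjusted p = 0.476), Hk2 (-0.73 ± 0.36, limma adjusted p = 0.514) and Pfkm (1.31 ± 0.69, limma adjusted p = 0.549). With PBM they were those of Pkm (-0.40 ± 0.11, limma adjusted p = 0.0807), Ldha (-0.35 ± 0.11, limma adjusted p = 0.194) and Vegfa (-0.64 ± 0.26, limma adjusted p = 0.4). With LPS they were those of Hif1a (0.76 ± 0.22, limma adjusted p = 0.0848), Hk2 (-1.01 ± 0.36, limma adjusted p = 0.198) and Ldha (0.31 ± 0.11, limma adjusted p = 0.228). The Pkm difference passed without PBM replicate 2 at 4 h (-0.48, limma adjusted p = 0.0393). Limma-voom called none in Control or with PBM and 1, Hif1a, with LPS (adjusted p = 0.0125). The effect of LPS differed between the times for none of the rows (0.617% of all genes, and none with limma-voom), and 2 were under an unadjusted p of 0.05 (8.19% of all genes). The smallest p-values were those of Ldha (0.44 ± 0.16, limma adjusted p = 0.402), Pfkfb4 (2.35 ± 1.14, limma adjusted p = 0.603) and Pfkfb3 (-1.10 ± 0.61, limma adjusted p = 0.683). Every comparison of times shares libraries with the comparisons at one time.

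Other genes of the same pathways moved in part. Of the other glucose and monocarboxylate carriers, 1 of 9 tested at 4 h and 1 of 10 at 24 h was called in each LPS comparison, and it was Slc2a6, a facilitative sugar carrier. It rose from 4.38 ± 3.21 to 35.3 ± 11.8 FPKM in LPS against Control at 4 h (log2 fold change 3.07 ± 0.67, limma adjusted p = 0.0147) and from 4.71 ± 2.22 to 42.4 ± 12.6 FPKM at 24 h (2.95 ± 0.40, limma adjusted p = 0.000171). With PBM in both arms it rose by 3.11 ± 0.67 at 4 h (limma adjusted p = 0.0139) and by 1.85 ± 0.40 at 24 h (limma adjusted p = 0.0135). Of the other glycolytic enzymes (12 tested), the genes of pyruvate entry into mitochondria (12 tested) and the other genes of oxygen sensing (11 tested), limma called none in any of the 15 comparisons.

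Of 38 other known hypoxia targets tested, 3 were higher and none lower in LPS against Control at 4 h, where 232 of all genes were called higher and 63 lower (2.23% called). In LPS+PBM against PBM at 4 h, 6 were higher and none lower (239 and 110 of all genes, 2.63% called). At 24 h, 3 were higher and 1 lower in LPS against Control (215 and 125 of all genes, 2.56% called), and 7 higher and none lower in LPS+PBM against PBM (240 and 119 of all genes, 2.7% called). Higher calls thus outnumbered lower ones among all genes too. The median log2 fold change of the list was 0.03 and -0.07 at 4 h and 0.01 and 0.09 at 24 h. In the same order 23, 19, 20 and 23 of the 38 were fitted above 0. Errfi1, an inhibitor of growth factor receptors, was called in all 4, with log2 fold changes of 2.24 ± 0.23, 2.38 ± 0.23, 2.2 ± 0.44 and 2.2 ± 0.44 (limma adjusted p = 4.65e-06, 2.75e-06, 0.00707 and 0.00596). Angptl4, a secreted regulator of lipid handling, rose at 4 h from 8.20 ± 0.311 to 59.0 ± 16.6 FPKM (2.67 ± 0.49, limma adjusted p = 0.00333).

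In PBM against Control at 24 h, 2 of the 38 other hypoxia targets were lower and none higher, where 13 of all genes were lower and 2 higher (0.113% called). Bhlhe40, a clock-linked repressor, was at 18.9 ± 6.64 FPKM against 83.2 ± 42.8 in Control (log2 fold change -2.0 ± 0.36, limma adjusted p = 0.0257). Klf6, a transcription factor, was at 40.2 ± 12.9 FPKM against 96.1 ± 13.5 (-1.27 ± 0.23, limma adjusted p = 0.0264). Bhlhe40 was also the gene lower with LPS than in Control at 24 h (28.8 ± 8.01 FPKM, -1.39 ± 0.36, limma adjusted p = 0.0436), and both comparisons use the same Control libraries. In LPS+PBM against PBM it was higher instead, at 48.7 ± 12.4 against 18.9 ± 6.64 FPKM at 24 h (1.36 ± 0.36, limma adjusted p = 0.0486) and at 82.1 ± 14.5 against 25.7 ± 6.91 FPKM at 4 h (1.65 ± 0.41, limma adjusted p = 0.0363). Klf6 was also higher there, by 0.99 ± 0.23 at 24 h (limma adjusted p = 0.0225) and by 0.78 ± 0.20 at 4 h (limma adjusted p = 0.0447), and stood at -0.40 ± 0.23 in LPS against Control at 24 h (limma adjusted p = 0.506). The interaction at 24 h was 2.75 ± 0.51 for Bhlhe40 (limma adjusted p = 0.0559) and 1.38 ± 0.33 for Klf6 (limma adjusted p = 0.311), and these comparisons share PBM and Control libraries with the falls above.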

How the data were processed

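Total RNA of 32 primary astrocyte libraries was reverse transcribed from oligo-dT by template switching into full-length cDNA and amplified by PCR, per the labels' protocols. The authors deposited 1 table of FPKM values for 21899 genes, which was used as given. The submitters' processing notes name fastp 0.18.0, Bowtie2 2.2.8, HISAT2, StringTie 1.3.1, RSEM and mm10. The sources used here do not say which of them made the FPKM values or how strand was used. Among the gene IDs, 21806 (99.58%) were found in GENCODE M21, which gave coordinates (GRCm38, the assembly of mm10).

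Fragments were inferred from the FPKM steps of 4310 single-transcript genes. Among 23595 values between 0 and 20 fragments, 92.34% lay within 0.05 of a whole number. For genes with several transcripts, fragment numbers are approximate. No molecular identifiers are named, and the numbers cover counting error only.

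Differences were fitted with limma 3.58.1 (R 4.3.3) on log2(FPKM + 1), with a trend and robust variances. Genes entered where any fitted group had a mean of 1 FPKM or more. Each fit within a time used its 16 libraries, and comparisons of times used all 32. P-values were adjusted by Benjamini-Hochberg over all genes tested. The genes of the set and all lists were chosen with earlier results of these data known. Every called gene of the set is named, or the 3 with the smallest p where none was called, along with 15 genes described by level. From each other list, at most 4 called genes are named in a comparison. A gene of these lists is not reported here. Promoter windows came from RefSeq (GRCm38.p6), and figures were drawn with matplotlib 3.10.9.

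The alternatives were a pseudocount of 0.1, no filter, quantile normalization, only the compared groups, library quality weights, a block for replicate number, limma-voom on approximate fragments and leaving out each library. Leaving out the 6 libraries listed last was chosen after seeing the data.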

Additional observations from a re-analysis of the deposited data

Results flagged for a closer look

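In 136 groups of 4 libraries (17 genes in 8 groups), the highest or lowest library was looked at for a gap to its nearest neighbour that, divided by the group's range, passed Dixon's 95% critical value. This was so in 13 groups, and chance alone gives about 1 in 20. In Adm 1 LPS+PBM library at 24 h stood at 65.0 FPKM, above 30.1 to 31.3 in the others, and in Pfkp 1 LPS library at 4 h stood at 60.0 FPKM, above 29.8 to 32.6. Pfkp in Control at 24 h had 1 library at 35.1 FPKM above 31.1 to 31.6, a small distance in a tight group.

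Among the abundant enzymes, Aldoa had 1 Control library at 4 h at 269.7 FPKM, below 389 to 411. Pgk1 had 1 LPS+PBM library at 4 h at 257 FPKM above 224 to 227, and 1 Control library at 24 h at 326 FPKM above 214 to 220.2. Pkm had 1 LPS+PBM library at 24 h at 627 FPKM above 539 to 552. P4ha1 had 1 LPS library at 24 h at 129 FPKM above 106 to 107, and Bnip3 1 PBM library at 24 h at 20.9 FPKM above 15.9 to 16.6.

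In the lowest genes the library that stood apart rested on few fragments. Slc16a3 was at 25.2 FPKM in 1 LPS library at 4 h against 0 to 3.16 in the others, and at 3.34 FPKM in 1 Control library at 24 h with the others listed at 0. Egln3 was at 2.80 FPKM in 1 Control library and in 1 LPS+PBM library at 4 h (2.80 FPKM), with the others of both groups listed at 0.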

How the results depend on the processing

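No value turned its direction. The 14 called results had 224 alternative values, of which 181 still passed and 43 did not, and of 546 alternatives for the 30 results named without passing, 2 passed. Counts of called genes stayed within 1.5 times in 246 of 262 alternatives. These include the comparisons without any called gene, where no call again counted as the same. In the comparisons with calls it was 15 and 16 of 16 at 4 h (LPS against Control, LPS+PBM against PBM) and 12 and 9 of 16 at 24 h. For LPS+PBM between the times it was 14 of 16. LPS against Control at 4 h gave 3 genes with limma-voom in place of 1. At 24 h it gave 1 with limma-voom, 0 without the 6 libraries listed last, and 1 to 2 when 1 library was left out, in place of 2. LPS+PBM against PBM at 24 h gave 2 with only the compared groups, 1 without the 6 libraries, and 1 to 4 when 1 library was left out, in place of 4. LPS+PBM at 24 h against 4 h gave 2 with only the compared groups and 1 without the 6 libraries, in place of 4. PBM at 24 h against 4 h gave 0 to 1 when 1 library was left out, and LPS 1 with limma-voom, in place of 0. The cause was not tested.

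No pairing by replicate number was seen, as residuals correlated at -0.025 to 0.029 in 48 same-numbered pairs and at -0.036 to 0.033 in 144 others. These residuals cover all genes with a mean of 1 FPKM or more. At this depth counting error can hide a shared deviation, so a pairing is not excluded. With the replicate block the genes called were 1 and 2 at 4 h (LPS against Control, LPS+PBM against PBM) and 2 and 4 at 24 h, with 4 in LPS+PBM between the times and 0 elsewhere. The block changed 1 call, Adm in LPS+PBM against PBM at 4 h (adjusted p = 0.0514). At this depth 15 of the 35 gene IDs had under 10 fragments per library, which limits what could be detected in them.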

Other observations

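Glucose can also leave glycolysis for the pentose phosphate pathway, which makes NADPH. Of its 8 genes tested, 3 were higher at 24 h than at 4 h with LPS (1.33% of all genes called) and 2 with LPS+PBM (3.01% of all genes called), none was lower, and none was called between the times in Control or with PBM. With LPS, Pgd, a dehydrogenase of the oxidative branch, rose from 65.3 ± 5.57 to 154 ± 27.5 FPKM (log2 fold change 1.21 ± 0.19, limma adjusted p = 0.000238), Taldo1, the transaldolase, from 46.1 ± 13.5 to 119 ± 21.7 FPKM (1.38 ± 0.27, limma adjusted p = 0.00331) and G6pdx, the first enzyme, from 19.9 ± 10.3 to 48.0 ± 7.35 FPKM (1.39 ± 0.35, limma adjusted p = 0.0356). With LPS+PBM, Taldo1 rose by 1.00 ± 0.27 (limma adjusted p = 0.0356) and G6pdx by 1.23 ± 0.35 (limma adjusted p = 0.0472). The effect of LPS differed between the times for 1 of the 8, Pgd (24 h minus 4 h, 1.19 ± 0.27, limma adjusted p = 0.032), where 0.617% of all genes were called. Against Control, Pgd stood at -0.57 ± 0.20 at 4 h (limma adjusted p = 0.186) and at 0.62 ± 0.21 at 24 h (limma adjusted p = 0.151). G6pdx stood at -0.91 ± 0.43 at 4 h (limma adjusted p = 0.405) and at 0.09 ± 0.25 at 24 h (limma adjusted p = 0.951). Its level with LPS at 24 h was thus near the 44.8 ± 2.45 FPKM of Control. Taldo1 stood at -0.26 ± 0.32 at 4 h (limma adjusted p = 0.819) and at 0.72 ± 0.21 at 24 h (limma adjusted p = 0.0874). None of the 8 was called in LPS against Control at either time.

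Glycogen is stored in the brain mainly by astrocytes. Of the 10 glycogen genes tested, 1 was lower and none higher with LPS at 24 h, in both comparisons (2.56% and 2.7% of all genes called). Pygb, the brain form of glycogen phosphorylase, fell from 71.9 ± 7.92 FPKM in Control to 38.3 ± 2.91 with LPS (log2 fold change -0.89 ± 0.21, limma adjusted p = 0.0263) and from 72.8 ± 12.0 with PBM to 32.1 ± 5.45 with LPS+PBM (-1.16 ± 0.21, limma adjusted p = 0.00309). None of the 10 was called at 4 h. Pygb was then at 34.1 ± 10.1 FPKM with LPS against 55.0 ± 9.27 in Control (-0.71 ± 0.27, limma adjusted p = 0.264). With LPS+PBM it was at 41.3 ± 11.6 FPKM against 53.2 ± 10.1 with PBM (-0.38 ± 0.27, limma adjusted p = 0.561). The effect of LPS on Pygb was not shown to differ between the times (-0.18 ± 0.32, limma adjusted p = 0.936). The astrocyte marker sums, which were lower with LPS at 24 h, stand beside Hif1a above, and their part in these values was not tested.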
